A study of Mus musculus with 22 samples.

Results

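The actin genes described here are Actb, Actg1, Acta1, Actc1 and Acta2, named by symbol and followed through every library of the series. They were chosen with earlier results of these data known. In the 20 libraries made with 3′READS, an assay that reads the fragment beside the poly(A) tail and so counts RNA 3′ ends, their members were the minus-strand poly(A) sites inside a fixed mm9 window for each gene. These windows held 151 of the 612268 sites listed: 72 for Actb, 27 for Actg1, 20 for Acta1, 1 for Actc1 and 31 for Acta2. In the 2 RNA-seq libraries the genes were found by symbol among 11355 listed. Gene names of poly(A) sites rest on these windows alone, since the site files carry no names.

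The series concerns PCF11, a protein of the machinery that cuts and polyadenylates nascent RNA, in mouse cell lines. C2C12 myoblasts were profiled as untreated controls and with siPcf11, each as total RNA and as RNA that carried 4-thiouridine (4sU, a uridine analogue that enters newly made RNA) after 1 h in 50 µM. Untreated C2C12 cells were also profiled as proliferating and as differentiated cells. NIH3T3 fibroblasts came as untreated controls and with siPcf11, 4T1 mammary carcinoma cells as untreated controls and as Pcf11-IPAKO, and 3T3-L1 preadipocytes as an untreated control and a library labelled siPcf11. Every 3′READS group has 2 libraries and each 3T3-L1 group has 1. All lines are labelled C57BL/6, no control siRNA is named, the label does not spell out IPAKO or the number of clones, and the day of differentiation is not given.

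Actins are the subunits of thin filaments. Actb and Actg1 encode the cytoplasmic forms that every cell uses for shape and movement, Acta1 and Actc1 encode the skeletal and cardiac muscle forms that build sarcomeres, and Acta2 encodes the form of smooth muscle and of myofibroblasts. When myoblasts fuse into myotubes they are known to replace cytoplasmic by sarcomeric actin. Many actin genes are targets of serum response factor, which binds a short promoter element called the CArG box.

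The promoters of 4 of the 5 genes were matched in RefSeq (GRCm38.p6), and the stretches around their CArG boxes are shown because they are the element by which this factor is known to reach actin genes. A CArG box is CC and GG on either side of 6 letters that are A or T, a pattern that reads alike on both strands. A CArG-like element was counted where 1 of those 6 letters is G or C. The 10 letters of the match are in capitals, with 10 bases on either side.
Acta1 CArG box: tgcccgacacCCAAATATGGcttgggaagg
Actc1 CArG box: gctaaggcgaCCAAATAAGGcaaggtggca
Actg1 CArG box: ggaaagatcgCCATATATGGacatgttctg
Acta2 CArG-like, farther: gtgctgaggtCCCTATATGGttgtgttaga
Acta2 CArG-like, nearer: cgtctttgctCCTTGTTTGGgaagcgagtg

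On GRCm38.p6 and the minus strand, these stretches lie at chr8:123894829-123894858, chr2:114052903-114052932, chr11:120348566-120348595, chr19:34255438-34255467 and chr19:34255388-34255417. Their first CArG base lies 73, 47, 90, 84 and 34 nt before the annotated start. In the 250 bases before the start, 3 of the 4 promoters held a CArG box, as did 1.47% of 32851 promoters. A CArG-like element stood in 3 of the 4 (2 in Acta1, 3 in Actc1, 2 in Acta2) and in 7.24% of all promoters. TATAAA, searched on both strands, occurred in Acta1 alone of the 4 and in 12.4% of all promoters. A match describes letters and is not evidence of binding.

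The 3′READS libraries held between 1887532 and 4432717 reads. Levels are given in CPM, the reads of a gene scaled to the depth of its library. Since each molecule gives its reads at the 3′ end, they need no correction for gene length. Changes are log2 fold changes from edgeR's quasi-likelihood test on features, which are runs of poly(A) sites chained along a strand, with each actin window as 1 feature. A gene was called at a Benjamini-Hochberg adjusted p under 0.05. Nothing in the labels ties the libraries of a group to separate cultures, so the p-values describe the scatter of these libraries, which may be technical. As bulk RNA, the data cannot separate fewer cells of a kind from less RNA per cell, and the effect of siPcf11 cannot be told apart from that of transfection.

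Differentiation of C2C12 cells exchanged the leading actin. Acta1 rose, while Actb and Acta2 fell, as did the reads in the Actg1 window. All 4 tested genes were called, beside 62.4% of 11760 features (32.7% higher and 29.8% lower). Actc1 had too few reads in its window to be tested.

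Acta1, the skeletal muscle form, stood at 77.6 and 69.8 CPM in the proliferating libraries and at 5097 and 5207 CPM in the differentiated ones. The groups lay far apart, with a log2 fold change of 6.27 (SE 0.12, edgeR adjusted p = 1.58e-49), a 77.1-fold rise. Its main site ranked 2424 and 2679 among all poly(A) sites of the proliferating libraries, and 10 and 11 in the differentiated ones.

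Actb, the main cytoplasmic form, moved the other way. It had 11695 and 9934 CPM in proliferating and 1937 and 1847 CPM in differentiated cells, with no overlap. The log2 fold change was -2.38 (SE 0.10, edgeR adjusted p = 3.17e-31), a 5.19-fold fall. Its main site, ranked 2 and 3 among all sites in proliferating cells, ranked 40 and 42 after differentiation.

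Acta2, the smooth muscle form, had 5860.1 and 5350.02 CPM in proliferating and 2578 and 2884 CPM in differentiated cells. Both differentiated libraries were below both proliferating ones, with a log2 fold change of -0.90 (SE 0.09, edgeR adjusted p = 6.33e-13). Actg1, the other cytoplasmic form, had 25 and 65 reads in proliferating and 1 and 4 reads in differentiated cells. Its log2 fold change was -4.13 (SE 0.51, edgeR adjusted p = 1.96e-10), on 95 reads in all. Only the proliferating libraries reached the minimum count of 10 for testing. This call is therefore no separate support for a fall of the gene.

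Actg1 values are uncertain throughout. The window held 222 reads over the 20 libraries, against 291305 for Actb. RefSeq lists 2 actin pseudogenes with symbols that start with Act, and any under other symbols were not counted. How the authors treated reads that match several places is not given in the sources used here. Hence the low count was not read as a low level of the gene.

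**Figure D1:**
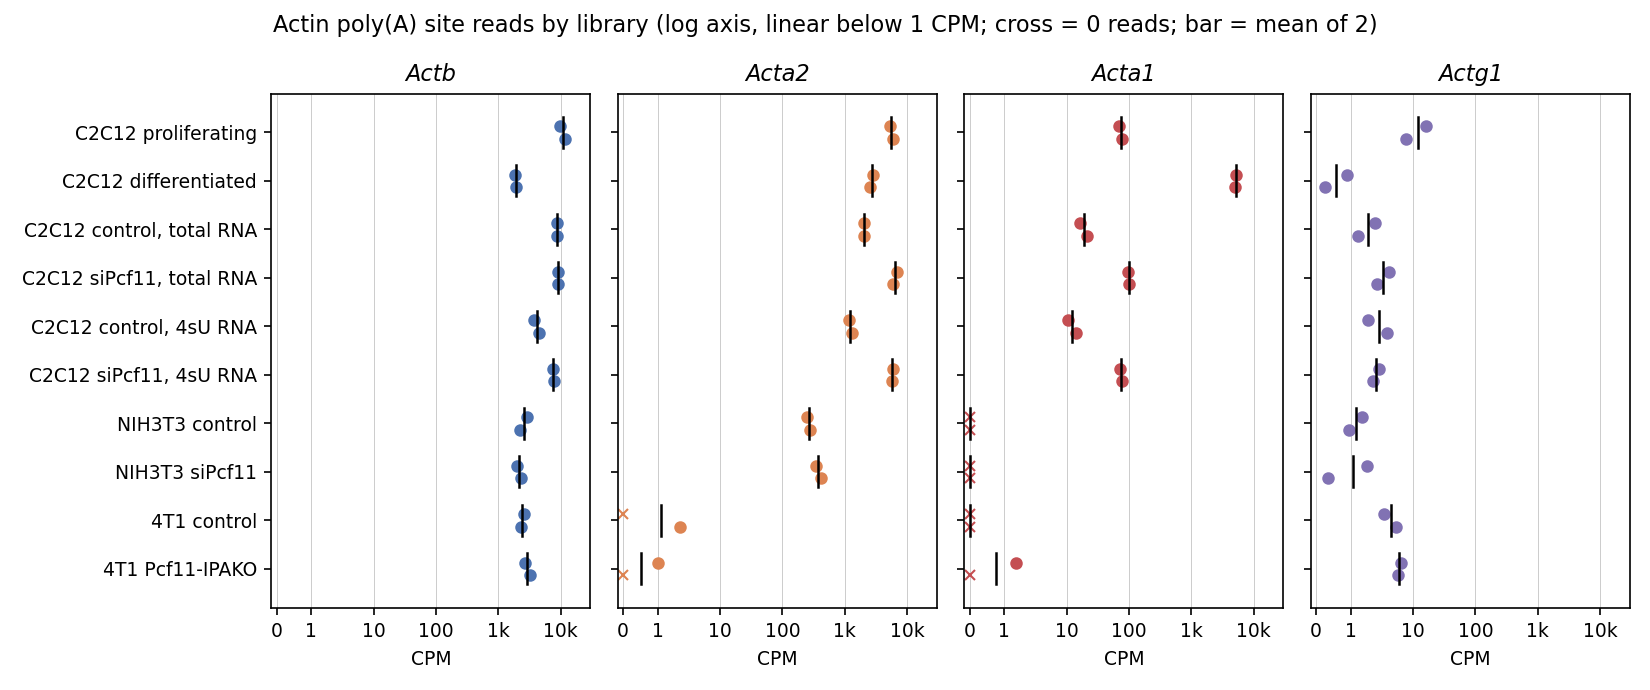
Level in CPM of 4 actin genes in each 3′READS library, by group (rows), on an axis that is logarithmic above 1 CPM; dots are libraries, crosses are libraries with 0 reads and bars are the means of 2 libraries. Acta1 reaches 5097 and 5207 CPM in the differentiated C2C12 libraries alone, where Actb is at its lowest.

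Actc1, the cardiac form, could not be followed by its window. That window held 1 read, at position 113893189 of chromosome 2 in proliferating replicate 2, and none elsewhere. A strong minus-strand site lay 12482 nt outside it, at position 113873018 (mm9). This site was singled out after its values were seen, no file names its gene, and it was not counted as Actc1. It had 3 and 3 reads in proliferating and 6808 and 8088 reads in differentiated cells. In CPM this was 0.830 ± 0.128 against 1792 ± 46.4 (SD, n = 2), a ratio of 2187 with a counting interval of 1005 to 5961 that covers counting error only. For the feature that holds this site, edgeR gave a log2 fold change of 11.18 (SE 0.20). The site was picked for its many reads, most of them from differentiated cells. A p-value would therefore be no separate test, and none is given. The site had at most 1 read in each of the other 16 libraries. An empty window is thus no measure of Actc1, whose level in these libraries was not established.

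The exchange was plain in the make-up of the reads in the 5 windows. These are not shares of all actin RNA, since the Actg1 and Actc1 windows do not measure their genes dependably. The share of sarcomeric actin, Acta1 plus Actc1, was 0.448% ± 0.0110 in proliferating and 52.7% ± 0.450 in differentiated cells (SD, n = 2). All but 1 of the sarcomeric reads were from Acta1. The 2 groups did not overlap, and an exact two-sided permutation test gave p = 0.333, the smallest that 2 against 2 libraries allow. Actb went from 65.5% ± 1.18 to 19.4% ± 1.11 of the actin reads and Acta2 from 34.0% ± 1.12 to 27.9% ± 1.55. With the strong chromosome 2 site added to Actc1, the sarcomeric share was 0.453% ± 0.0107 and 60.03% ± 0.366.

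**Figure D2:**
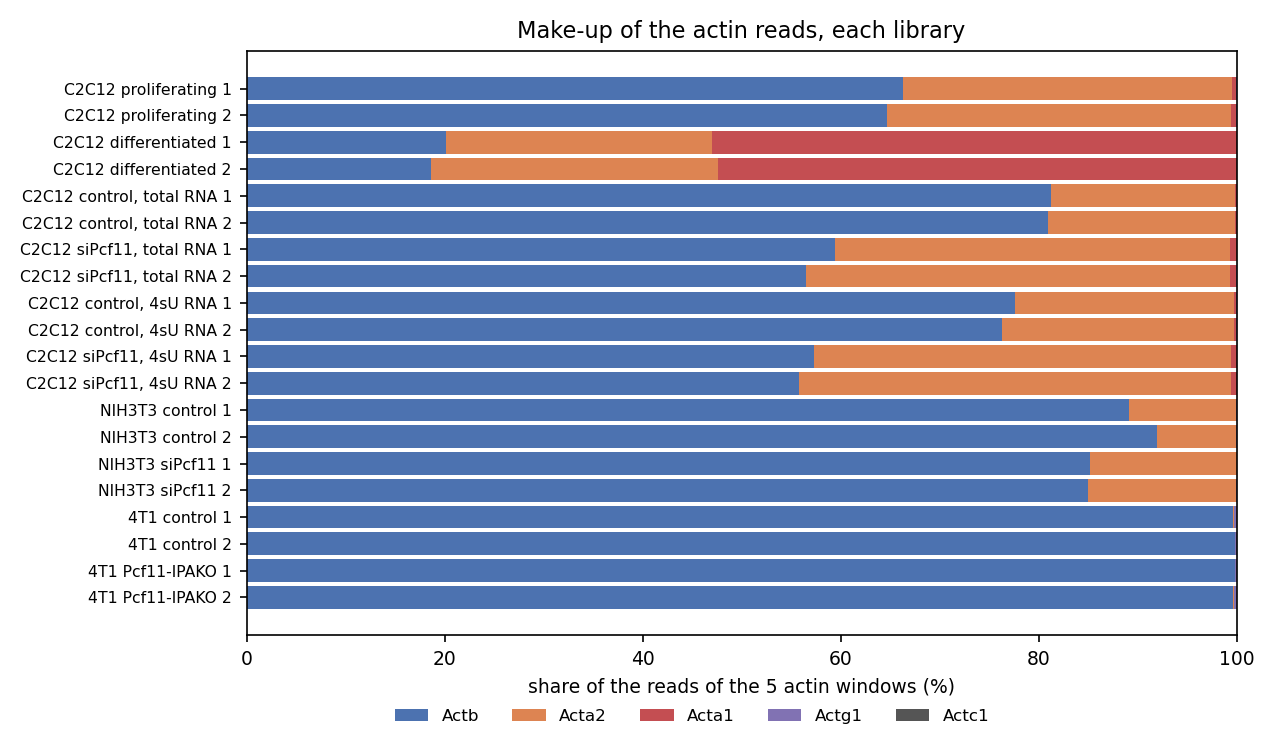
Share of each gene in the reads of the 5 actin windows, in percent, with 1 bar for each 3′READS library. The Actg1 and Actc1 windows do not measure their genes dependably, so these are not shares of all actin RNA. Acta1 takes 53.0% and 52.4% in the differentiated C2C12 libraries, Acta2 takes more under siPcf11 than in the matching C2C12 controls, and Actb takes over 99% in each 4T1 library.

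In C2C12 cells with siPcf11, Acta1 and Acta2 rose in both total and 4sU RNA, and Actb rose in 4sU RNA. In total RNA 2 of 3 tested genes were called, both higher, beside 51.8% of 11082 features called and 24.3% called higher. In 4sU RNA 3 of 3 were called, all higher, beside 53.6% called and 28.5% called higher. Actg1, at 3 to 10 reads in each of these 8 libraries, and Actc1 were not tested.

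Acta2 in total RNA had 2028 and 2012 CPM in controls and 6017 and 6889 CPM with siPcf11. The groups were well apart, with a log2 fold change of 1.85 (SE 0.11, edgeR adjusted p = 8.74e-53), a 3.60-fold rise. In 4sU RNA it had 1296 and 1167 CPM in controls and 5661 and 5917 CPM with siPcf11, a log2 fold change of 2.54 (SE 0.11, edgeR adjusted p = 1.74e-83).

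Acta1 in total RNA had 21.6 and 16.2 CPM in controls and 101 and 98.6 CPM with siPcf11, from 89 and 433 reads. The log2 fold change was 2.58 (SE 0.20, edgeR adjusted p = 2.92e-32), a 5.96-fold rise. In 4sU RNA it had 14.0 and 10.5 CPM in controls and 78.3 and 72.1 CPM with siPcf11, a log2 fold change of 2.92 (SE 0.22, edgeR adjusted p = 1.39e-34). Even so, the siPcf11 level of Acta1 in total RNA, 99.9 ± 1.85 CPM, was far under the 5152 ± 77.9 CPM of differentiated cells (SD, n = 2), a comparison between experiments. Untreated proliferating cells of the differentiation experiment had 73.7 ± 5.54 CPM of Acta1. Their Acta2 was at 5605 ± 361 CPM, against 6453 ± 617 CPM with siPcf11 in total RNA. Between these untreated cells and the total RNA controls, Acta1 differed 3.90-fold and Acta2 2.77-fold.

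Actb in total RNA had 8866 and 8598 CPM in controls and 8974 and 9086 CPM with siPcf11. The log2 fold change was 0.22 (SE 0.10, edgeR adjusted p = 0.0566) and was not called. With library totals as the scaling it was 0.05 (edgeR adjusted p = 0.715). It was called with DESeq2 size factors (0.26, edgeR adjusted p = 0.0277) and by the DESeq2 test (0.26, adjusted p = 0.0322). With the replicate number as a block (0.22, edgeR adjusted p = 0.0141) or only the 4 libraries compared (0.22, 0.0398) it was called too. Without siPcf11 replicate 1 or 2 it was 0.32. So whether Actb is called in total RNA depends on the settings. In 4sU RNA, Actb had 4564 and 3794 CPM in controls and 7693 and 7555 CPM with siPcf11, with no overlap, and rose by 1.17 on the log2 scale (SE 0.10, edgeR adjusted p = 4.74e-26).

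The scaling bears on these sizes. The median log2 change of all features was -0.02 in total RNA and 0.03 in 4sU RNA with TMM scaling, and -0.19 and -0.27 with library totals. Relative to that median, Acta2 changed by 1.86 with either scaling in total RNA, and by 2.51 and 2.50 in 4sU RNA. Actb in 4sU RNA changed by 1.14 with either, and in total RNA it differed from that median by 0.24 with TMM and 0.23 with library totals.

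With siPcf11 the share of Actb in the actin reads was smaller, as in differentiation, but its level was not lower. Its log2 fold change was 0.22 in total RNA (not called) and 1.17 in 4sU RNA, against -2.38 in differentiation. The share went mainly to Acta2, which rose with siPcf11 but fell in differentiation. In total RNA, Actb made up 81.1% ± 0.226 of the actin reads in controls and 57.98% ± 2.08 with siPcf11, and Acta2 18.8% ± 0.251 and 41.4% ± 2.11. The sarcomeric share went from 0.175% ± 0.0327 to 0.642% ± 0.0405 in total RNA and from 0.225% ± 0.0189 to 0.557% ± 0.0359 in 4sU RNA (SD, n = 2; exact permutation p = 0.333 for each, the smallest possible). So the name cytoskeletal to sarcomeric switch describes the differentiated cells, and under siPcf11 the sarcomeric share stayed below 1%.

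The 4sU libraries hold RNA made in the last hour, and total RNA holds what has accumulated. In control cells all 3 tested genes had a smaller share of 4sU than of total RNA, and all 3 were called, beside 27.9% of features called and 16.7% called lower. Actb was lower by a log2 change of -1.14 (SE 0.10, edgeR adjusted p = 9.36e-24) and Acta2 by -0.79 (SE 0.10, edgeR adjusted p = 1.46e-11). For Acta1, at 64 and 89 reads, the change was -0.69 (SE 0.27, edgeR adjusted p = 0.0375), which rests on the settings. The call ended with library totals (edgeR adjusted p = 0.0728), DESeq2 size factors (0.0534), the DESeq2 test (0.132) and only the 4 libraries compared (0.101). It also ended in edgeR without control total RNA replicate 1 (0.352) and without control 4sU replicate 2 (0.342).

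With siPcf11, 0 of these 3 genes were called between 4sU and total RNA in edgeR, beside 18.6% of features called in either direction. The log2 changes were -0.18 (SE 0.10) for Actb, -0.10 (SE 0.10) for Acta2 and -0.35 (SE 0.17) for Acta1. Acta1 alone had an unadjusted p under 0.05, and DESeq2 called 0 of the 3 as well.

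The size of the siPcf11 response differed between 4sU and total RNA for Actb and Acta2. This difference was called for 2 of 3 actin genes, beside 0.857% of features. For Actb the response in 4sU RNA exceeded that in total RNA by 0.96 on the log2 scale (SE 0.14, edgeR adjusted p = 5.74e-07). For Acta2 it exceeded it by 0.69 (SE 0.15, edgeR adjusted p = 0.00285), and the call ended without siPcf11 total RNA replicate 1 (0.214) and without siPcf11 4sU replicate 1 (0.0803) or 2 (0.117). For Acta1 the difference was 0.34 (SE 0.31, edgeR adjusted p = 0.739). The median difference of all features was 0.09 with TMM scaling and -0.04 with library totals. Relative to that median, the difference was 0.86 for Actb, 0.60 for Acta2 and 0.25 for Acta1 with either scaling. The 4 groups in this test also enter the comparisons above, so it adds no separate libraries.

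In NIH3T3 cells edgeR called 0 of the 2 tested actin genes with siPcf11, beside 0.0% of 13575 features, 2268 of which had an unadjusted p under 0.05. DESeq2 called 332 features and no actin gene. Of all groups, siPcf11 NIH3T3 had replicates that differed most beyond counting noise (chi-square divided by its degrees of freedom, 12.9). The lack of edgeR calls therefore does not show that levels stayed the same. Acta2 had 276 and 252 CPM in controls and 409.7 and 345 CPM with siPcf11. The groups did not overlap, with a log2 fold change of 0.53 (SE 0.21, edgeR adjusted p = 0.280). Without siPcf11 replicate 2 it was 0.67 and called (edgeR adjusted p = 0.00103), in a fit that called 1780 features where the whole set called 0.

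Actb had 2264 and 2912 CPM in NIH3T3 controls and 2349.96 and 1963 CPM with siPcf11. These groups overlapped, with a log2 fold change of -0.24 (SE 0.21, edgeR adjusted p = 0.626). Without siPcf11 replicate 1 it was -0.42 and called (edgeR adjusted p = 0.0112), in a fit that called 5000 features. Acta1 had 0 reads in all 4 NIH3T3 libraries, which allows up to 0.463 CPM in controls and 0.453 CPM with siPcf11 by counting error.

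The response of Acta2 to siPcf11 was smaller in NIH3T3 than in C2C12 total RNA by 1.41 on the log2 scale (difference -1.41, SE 0.22, edgeR adjusted p = 0.0118), and was called beside 3.69% of features. This call held in edgeR without NIH3T3 control replicate 2 or either siPcf11 NIH3T3 library. It ended without either C2C12 control (0.115 and 0.118), without siPcf11 C2C12 replicate 1 (0.0762) or 2 (0.100), and without NIH3T3 control replicate 1 (0.0686). Calls over all features went from 0 without a C2C12 library to 3685 without siPcf11 NIH3T3 replicate 1. For Actb the difference was -0.56 (SE 0.22, edgeR adjusted p = 0.189), and it was called without siPcf11 NIH3T3 replicate 1 (6.40e-06) or 2 (0.0203). The cell lines come from separate experiments, so line and experiment cannot be told apart.

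In 4T1 cells, Actb made up nearly all reads of the 5 windows, of which those of Actg1 and Actc1 do not measure their genes dependably. Actb had 2293 and 2575 CPM in controls and 3216 and 2638 CPM in Pcf11-IPAKO, with both Pcf11-IPAKO libraries above both controls. The log2 fold change was 0.35 (SE 0.32, edgeR adjusted p = 0.692). Actg1 had 12 and 13 reads in controls and 11 and 25 in Pcf11-IPAKO, a log2 fold change of 0.54 (SE 0.58, edgeR adjusted p = 0.751). So 0 of 2 tested genes were called by edgeR, with 0 at an unadjusted p under 0.05 and 0 called by DESeq2, beside 4.16% of features. Replicates also differed widely in controls and Pcf11-IPAKO (chi-square divided by its degrees of freedom, 10.3 and 8.84). The lack of calls therefore does not show unchanged levels. Acta2 had 5 and 0 reads in controls and 0 and 4 in Pcf11-IPAKO, and Acta1 had 6 reads in 1 Pcf11-IPAKO library and none in the other 3.

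**Figure D3:**
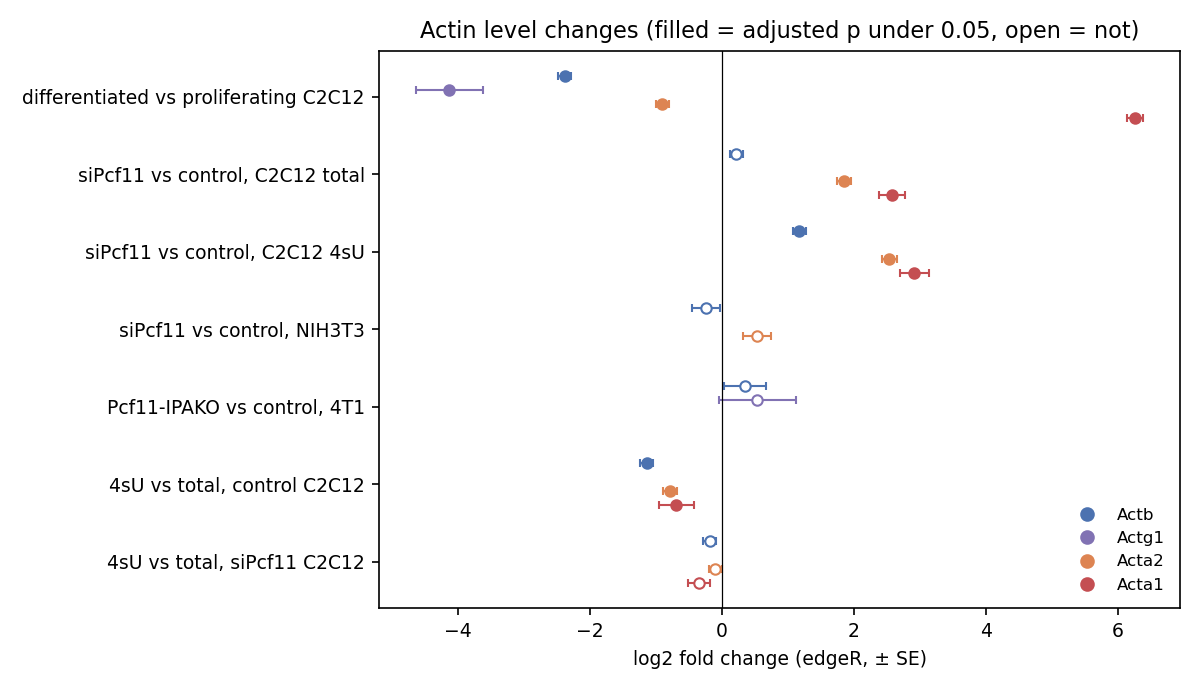
Log2 fold change of each tested actin gene in 7 comparisons, with bars of 1 SE from edgeR; filled points have an adjusted p under 0.05. Acta1 and Acta2 lie on opposite sides of 0 in differentiation and on the same side with siPcf11 in C2C12, and no gene is filled in NIH3T3 or 4T1.

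The control libraries differed in which actins they held. Against NIH3T3 controls, C2C12 total RNA controls were higher in Actb, with a log2 fold change of 1.61 (SE 0.20, edgeR adjusted p = 1.42e-06), and in Acta2, with 2.79 (SE 0.24, edgeR adjusted p = 1.46e-08). Acta1 had 89 reads in the C2C12 controls and 0 in the NIH3T3 controls, so it was at least 40.5-fold higher against a floor of 3 counts over the group. Of 4 tested genes 3 were called higher, beside 71.9% of 15131 features called and 30.0% called higher. Actg1 had a log2 fold change of 0.46 (SE 0.83, edgeR adjusted p = 0.638).

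Against NIH3T3 controls, 4T1 controls had 5 Acta2 reads where NIH3T3 had 1706, a 314-fold lower level once scaled to depth, with a counting interval of 135 to 969.8. All 5 reads were in replicate 1 and replicate 2 had 0, a scatter that the counting interval does not cover. The edgeR log2 fold change was -8.09 (SE 0.43, adjusted p = 2.11e-11). It was -6.65 without 4T1 control replicate 2, and without replicate 1 the 4T1 side had no read, so that its size cannot be given. Actb differed by 0.05 on the log2 scale (SE 0.20, edgeR adjusted p = 0.840), and this value turned to -0.09 with library totals. Actg1, on 25 and 8 reads, was higher in 4T1 by 1.89 (SE 0.68, edgeR adjusted p = 0.0197). This call ended with the DESeq2 test (adjusted p = 0.0567) and with only sites kept by the 1 CPM minimum (edgeR adjusted p = 0.0995). It also ended without NIH3T3 control replicate 1, where the log2 value was 1.63. These 2 calls of 3 tested genes stand beside 70.1% of features.

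The 2 sets of untreated C2C12 cells also differed. The proliferating cells of the differentiation experiment had more Acta1 than the control total RNA libraries, by 1.96 on the log2 scale (SE 0.27, edgeR adjusted p = 0.000653), and more Acta2, by 1.47 (SE 0.23, edgeR adjusted p = 0.00119). Actg1 was higher by 2.64 (SE 0.58, edgeR adjusted p = 0.0154), a call that ended without control replicate 1 (0.156) or 2 (0.0577) or proliferating replicate 2 (0.332). Actb differed by 0.31 (SE 0.19, edgeR adjusted p = 0.520). Here 3 of 4 tested genes were called higher, beside 3.13% of features called and 1.16% called higher.

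Over the 10 groups, Actb was highest in proliferating C2C12 cells at 10815 ± 1245 CPM (SD, n = 2). It was followed by siPcf11 total RNA at 9029.8 ± 79.4, control total RNA at 8732 ± 190, siPcf11 4sU RNA at 7624 ± 97.3 and control 4sU RNA at 4179 ± 544. Then came Pcf11-IPAKO 4T1 at 2927 ± 409, control NIH3T3 at 2588 ± 459, control 4T1 at 2434 ± 199 and siPcf11 NIH3T3 at 2156 ± 274. In those last 4 groups each overlapped with its neighbour. Differentiated C2C12 cells were lowest, at 1892 ± 63.5 CPM, and just apart from siPcf11 NIH3T3, whose lower library had 1963 CPM.

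Acta2 was highest in siPcf11 total RNA at 6453 ± 617 CPM, then in siPcf11 4sU RNA at 5789 ± 181 and proliferating cells at 5605 ± 361, the last 2 of which overlapped. Differentiated cells at 2731 ± 216, control total RNA at 2020.3 ± 11.2 and control 4sU RNA at 1232 ± 91.1 CPM followed, each apart from its neighbour. Then came siPcf11 NIH3T3 at 377 ± 45.6, control NIH3T3 at 264 ± 16.5 and the 4T1 groups at 0 to 5 reads a library, which overlapped with each other.

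For Acta1, differentiated cells were followed by siPcf11 total RNA, then siPcf11 4sU RNA at 75.2 ± 4.39 and proliferating cells at 73.7 ± 5.54 CPM, which overlapped. Control total RNA at 18.9 ± 3.87 and control 4sU RNA at 12.3 ± 2.47 CPM came next, apart from each other. In every C2C12 library except the differentiated ones the order of the 3 genes with dependable counts was Actb, Acta2 and Acta1. In the differentiated libraries it was Acta1, Acta2 and Actb.

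The features most like an actin gene were sought over the 10 group means of log2(CPM + 1), among 8596 features with a mean of at least 10 CPM. For Acta1 they were the plus-strand features at chr15:32962368-32964820 (mm9, Pearson's r 0.986) and chr4:58387171-58390757 (0.984). For Acta2 they were the plus-strand feature at chr3:37305138-37309809 (0.994) and the minus-strand feature at chr1:182917479-182919687 (0.991). No gene names are given to these features. The 10 points share cell lines and experiments, 6 of them being C2C12, so these values only describe patterns. The strong chromosome 2 site had an r of 0.762 with Acta1.

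Each abundant actin gene ended mostly at a single poly(A) site. The site at position 143664796 of chromosome 5 held 99.8% of Actb reads, and that at 126415663 of chromosome 8 held 99.7% of Acta1 reads. Acta2 was the exception. Its main site, at 34316012 of chromosome 19, held 93.3% of the reads, and a second end lay 434 nt farther downstream, at 34315578 (all mm9, minus strand). A site 27 nt downstream of the main one, at 34315985, held 25.0% in Pcf11-IPAKO 4T1 replicate 2, which was 1 of 4 reads. Of the 222 Actg1 reads, 61.7% lay at position 120207003 of chromosome 11. That site held 25 of 25 and 64 of 65 reads in the proliferating C2C12 libraries and between 8.0% and 23.1% in the 4T1 libraries, on 1 to 3 reads each.

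This far Acta2 end was used in C2C12 and hardly in NIH3T3. Reads within 50 nt of it made up between 4.06% and 7.19% of the reads at both ends in the 12 C2C12 libraries, with a median of 4.94%. In the 4 NIH3T3 libraries they made up between 0% and 0.952%, with a median of 0.609%. This share joins 34315578 with a site at 34315604. At 34315578 itself NIH3T3 had 0 and 2 reads in controls and 0 and 0 with siPcf11. The site at 34315604 held between 0.201% and 0.904% of Acta2 reads in C2C12 and between 0% and 0.714% in NIH3T3. So the difference between the lines lay at 34315578. The lines did not overlap in the joined share. The C2C12 libraries come from the siRNA and the differentiation experiments, and NIH3T3 only from a separate one, so line and experiment cannot be told apart. The 0 in siPcf11 NIH3T3 replicate 2, of 1321 reads, has an upper Wilson limit of 0.290%.

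With siPcf11 in total RNA the far site took more of the Acta2 reads, 6.72% and 5.42% against 4.77% and 3.95% in controls. Its relative use rose by 0.32 on the log2 scale (edgeR's diffSpliceDGE, adjusted p = 0.0175). It was the 1 called of 6 tested actin sites, beside 16.3% of all sites tested. The call ended without control replicate 2 (0.348) or siPcf11 replicate 1 (0.313) and with no low-count filter (0.0723). In 4sU RNA the same site took 4.66% and 4.39% with siPcf11 and 4.75% and 4.16% in controls, which overlap, with a log2 change of 0.01 (diffSpliceDGE adjusted p = 0.988).

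**Figure D4:**
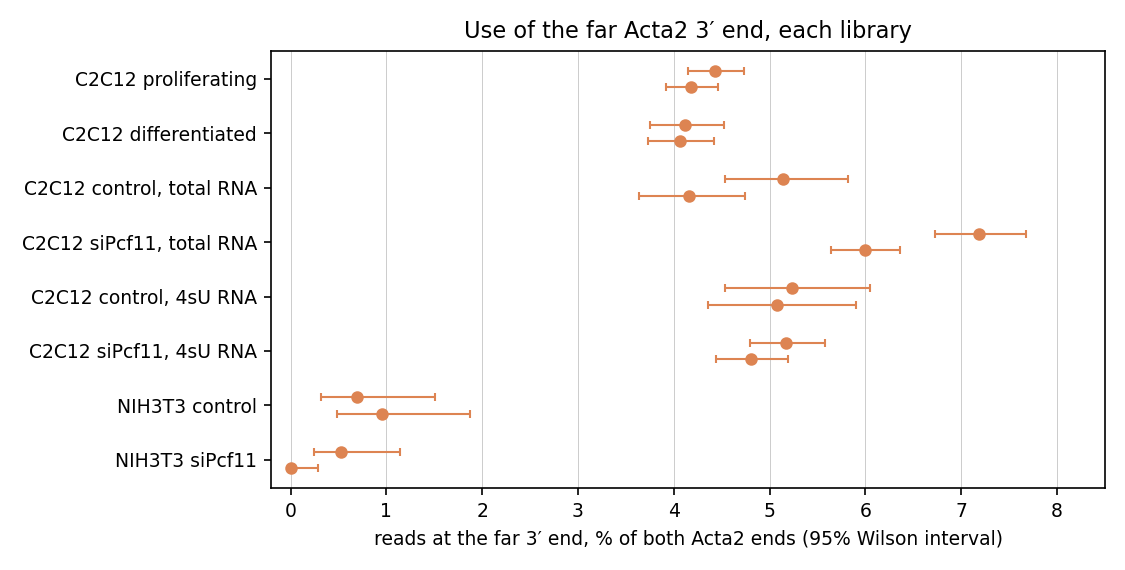
Share of reads at the far Acta2 3′ end among reads at both ends, in percent, for each C2C12 and NIH3T3 library with its 95% Wilson interval, which covers counting error only. The siPcf11 total RNA libraries are highest, at 7.19% and 5.99%, and all NIH3T3 libraries are below 1%.

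Other calls of site use rested on few reads. In 4sU RNA, a minor Actb site 610 nt upstream of the main one, at 143665406, had 11 and 5 reads in controls and 5 and 1 reads with siPcf11 while Actb as a whole rose. Its use fell by 1.37 on the log2 scale (diffSpliceDGE adjusted p = 0.0492), the 1 called of 6 actin sites beside 14.3% of sites. The call ended without control 4sU replicate 1 (0.564) or 2 (0.0664), without siPcf11 4sU replicate 2 (0.458) and with no low-count filter (0.145).

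In control C2C12 cells, the Acta2 site at 34315604, with 16 and 28 reads in 4sU and 17 and 10 in total RNA, was used more in 4sU RNA by 0.88 on the log2 scale (diffSpliceDGE adjusted p = 0.0412). It was the 1 called of 6 actin sites beside 3.85% of sites, and the call ended without control total RNA replicate 1 (0.0729) or 2 (0.492), without control 4sU replicate 2 (0.985) and with no filter (0.156). In differentiation diffSpliceDGE called 0 of 8 actin sites (0 had an unadjusted p under 0.05), beside 9.9% of sites. With siPcf11 in NIH3T3 it called 0 of 4 (0 had an unadjusted p under 0.05), beside 0.0776%. Between 4sU and total RNA with siPcf11 it called 0 of 6 (2 had an unadjusted p under 0.05), beside 2.79%. In 4T1 no actin site could be tested, beside 0.536% of other sites called.

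In 3T3-L1 preadipocytes, RNA-seq gave 8573956 control counts and 6992460 in the library labelled siPcf11. With 1 library in each group there is no replicate check and no test, and intervals cover counting error only. The target gene went against the label, since Pcf11, at 939 control counts and 840 in the library labelled siPcf11, came to 109.7% of its control level when scaled to library totals. Ratios are of counts scaled to library totals, and levels are not compared between genes because counts grow with transcript length.

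Of the 4 listed actin genes 0 reached 1.5-fold in either direction, beside 5.86% of 9143 genes with at least 100 counts. Acta2 had the highest ratio of the 4, with 17040 control counts and 20650 in the library labelled siPcf11. Its log2 ratio was 0.57 (95% counting interval 0.54 to 0.60), and 0.60 when scaled to the median ratio of all genes, which passes 1.5-fold. Actb, with 13907 and 13361 counts, had a log2 ratio of 0.24 (0.20 to 0.27).

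Acta1 had 334 control counts and 328 in the library labelled siPcf11, a log2 ratio of 0.27 (0.04 to 0.49). Actg1, with 1893 and 1279 counts, had a log2 ratio of -0.27 (-0.37 to -0.17). Actc1 was not listed in either library, and the files list no gene under 5 counts. The median log2 ratio of all genes was -0.03, with 4133 of the 9143 above 0.

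Genes that work with actin showed no ratio as high as 1.5-fold except in a few cases. In the actin family list, which holds the 4 genes above, 4 of 8 counted members had a ratio above 0 and the median was 0.07. Actg2, the enteric smooth muscle form, had 116 and 148 counts and reached 1.56-fold (log2 ratio 0.65, interval 0.29 to 1.01). The lowest was Actr1b, a dynactin subunit, at -0.31.

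Genes of monomer binding and filament turnover had a median of 0.03, with 11 of 19 above 0 and 0 at 1.5-fold. Wdr1, a cofactor of cofilin, had 0.39 and the capping subunit Capzb 0.30, while the monomer binder Tmsb10 had -0.24 and the cofilin kinase Limk1 -0.21. Genes of nucleation had a median of 0.06, with 9 of 14 above 0 and 0 at 1.5-fold. The Arp2/3 subunit Actr2 had 0.23 and its activator subunit Wasf2 0.23, while the Arp2/3 subunit Arpc4 had -0.31 and Wasl -0.22.

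Crosslinkers, adhesion links and nonmuscle myosin had the highest median of the 6 lists, 0.19, with 19 of 22 above 0. Myl9, a regulatory light chain of smooth muscle and nonmuscle myosin, had 335 and 423 counts and reached 1.55-fold (log2 ratio 0.63, interval 0.42 to 0.84). The bundling protein Pls3 had 0.41, the focal adhesion protein Zyx -0.11 and the myosin heavy chain Myh10 -0.06. Tropomyosin, calponin and serum response factor targets had a median of 0.06, with 12 of 18 above 0 and 0 at 1.5-fold. Tpm3 had 0.37 and Tagln2 0.37, while Tpm2 had -0.37 and Tpm4 -0.16.

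Partners of actin in the sarcomere were nearly absent from 3T3-L1. Of 22 symbols 10 were listed, and Tnnt2, the cardiac form of troponin T, was the only member with at least 100 counts over both libraries, the minimum for a gene to be named by its ratio. It had 1022 control counts and 546 in the library labelled siPcf11, a log2 ratio of -0.61 (-0.76 to -0.46). Below that minimum, and chosen after their values were seen, Tnni2, a fast skeletal troponin I, had 9 and 33 counts (log2 ratio 2.17, 1.07 to 3.42). Actn3, a skeletal muscle alpha-actinin, had 24 and 5 (log2 ratio -1.97, -3.72 to -0.55), so the members whose intervals leave out 0 went both ways. Skeletal muscle markers summed to 3.499 CPM (control) and 3.58 CPM (labelled siPcf11), with 2 of 6 listed and Myod1, Myog and Ckm unlisted. Fibroblast and preadipocyte markers, all 8 listed, summed to 30649 and 31934 CPM. Of 6 adipocyte markers only Fabp4 was listed, and of 5 smooth muscle markers Smtn, Tagln and Des were, summing to 173 and 189.9 CPM.

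**Figure D5:**
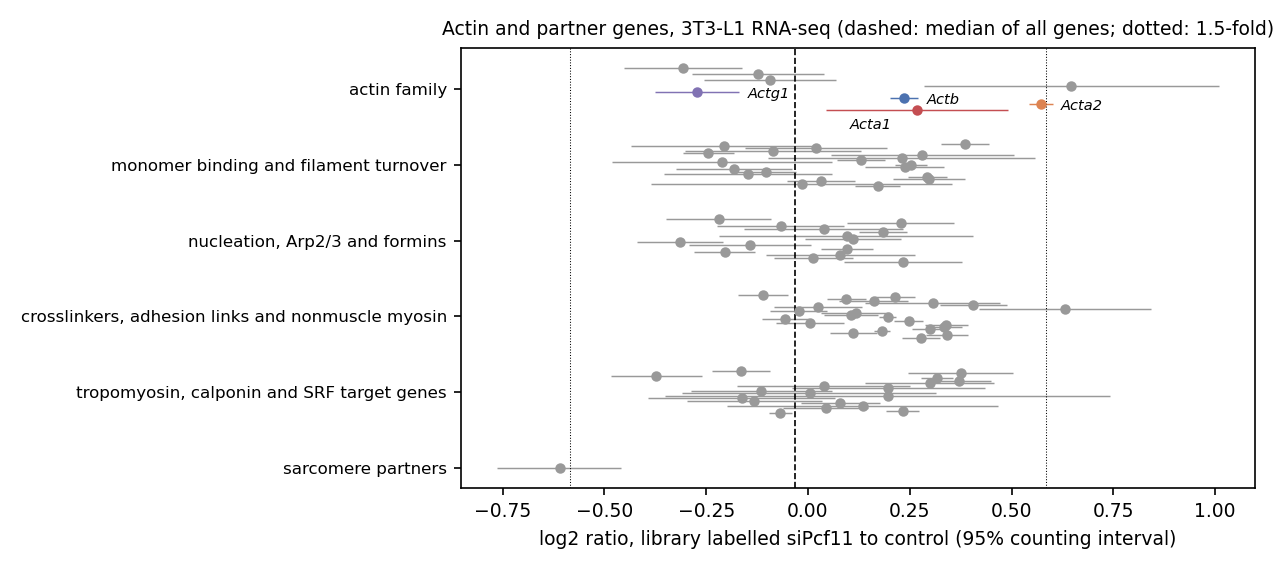
Log2 ratio of the library labelled siPcf11 to the control in 3T3-L1 RNA-seq, for genes with at least 100 counts in 6 lists, with 95% counting intervals; coloured points are the 4 listed actin genes, the dashed line is the median of all genes and dotted lines mark 1.5-fold. Acta2 lies just inside the upper dotted line, and Actg2, Myl9 and Tnnt2 lie outside the lines.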

How the data were processed

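The deposited files hold unnormalized whole-number counts, per the file headers: reads at each poly(A) site for 3′READS, and reads for each gene symbol for RNA-seq. The authors' cutadapt, Bowtie2 and STAR, without versions, and the build mm9 are named in the submitters' processing notes. How sites were clustered and genes annotated is not given in the sources used here. No genome or table of mm9 was used and no coordinate was converted.

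Reads in each actin window were summed as 1 feature. Other sites with at least 1 CPM in at least 2 libraries were chained over gaps of up to 5 kb. Levels were tested with edgeR 4.0.16 under R 4.3.3 and limma 3.58.1 (TMM, filterByExpr with a minimum count of 10, glmQLFTest), and site use with diffSpliceDGE. The 8 C2C12 siRNA libraries were fitted together, the others by experiment, and cell lines in joint fits. Adjusted p-values cover all features of a fit. The tests were tried on counts simulated from the fitted model, which cannot show how well that model describes these libraries. RNA-seq ratios have exact conditional binomial intervals.

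Alternatives were library totals, DESeq2 size factors, DESeq2 1.42.0, no filter, gaps of 2 and 10 kb, the replicate number as a block, only kept sites, only the compared libraries and each library left out. Adding the chromosome 2 site and a block that joins same-numbered 4sU and total RNA libraries within a treatment were chosen after seeing the data. Named items were the 5 genes, their sites with at least 5% of reads in a group or a call (with at least 20 reads in all, a minimum added after the 23 such Actg1 sites were seen), the 2 most alike features of Acta1 and Acta2, and in each RNA-seq list, among genes with at least 100 counts, the 2 highest and 2 lowest ratios and any at 1.5-fold. The members and lists were chosen with earlier results of these data known. Replicates differed by more than counting noise in each group (chi-square divided by its degrees of freedom, 1.85 to 12.9). The highest values were in siPcf11 NIH3T3 (12.9), control 4T1 (10.3) and Pcf11-IPAKO 4T1 (8.84). Plots and tables used Python 3.11.15, pandas 2.3.3, numpy 2.4.6, scipy 1.17.1 and matplotlib 3.10.9.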

Additional observations from a re-analysis of the deposited data

Results flagged for a closer look

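The siPcf11 response differed between 4sU and total RNA of C2C12 cells for Acta2 (difference 0.69 on the log2 scale) and Actb (0.96), by edgeR's interaction test. The Acta2 response also differed between NIH3T3 and C2C12 (difference -1.41). The libraries on which the Acta2 calls rest are named in the report.

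Some sites outside the actin windows, or on their other strand, held more reads in some groups than in others. The minus-strand site at 113873018 of chromosome 2, beside the Actc1 window, had 14896 reads in differentiated C2C12 cells and 6 in proliferating ones. On the plus strand inside that window, the site at 113887916 had 129 reads in differentiated cells and 0 in proliferating ones, and that at 113890611 had 51 and 1. Inside the Actb window, the plus-strand site at 143665357 had 18 reads in control NIH3T3 and 14 with siPcf11, and at most 1 in every other group.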

How the results depend on the processing

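Of 470 alternative values of single gene levels, 435 kept direction and side of the threshold, 20 lost a call, 10 gained a call and 5 changed sign. The sign changes were all of uncalled values. Actb in 4T1 against NIH3T3 controls went from 0.05 to -0.088 with library totals, to -0.046 with DESeq2 size factors, to -0.046 with DESeq2 and to -0.11 without NIH3T3 control replicate 1. Actg1 in C2C12 against NIH3T3 controls went from 0.46 to -0.033 without C2C12 control replicate 2 and to 0.82 without replicate 1, the range over libraries left out. Calls in 4T1 against NIH3T3 controls were 2, and 1 with DESeq2, with only kept sites and in the lowest case with a library left out (1 to 2). With a library left out, calls were 1 to 2 for the response in 4sU against total RNA, 0 to 1 for siPcf11 in NIH3T3 and 0 to 2 for the response in NIH3T3 against C2C12.

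For site use, leaving out a library gave 0 to 2 calls for siPcf11 in total RNA, 0 to 1 in 4sU RNA, 0 to 1 for 4sU against total RNA in controls, 0 to 1 with siPcf11 and 0 to 1 in NIH3T3. With no low-count filter, 0 sites passed for siPcf11 in 4sU RNA and 0 for 4sU against total RNA in controls. In 3T3-L1, 1 gene, Acta2, reached 1.5-fold with median scaling. The sarcomeric share kept its direction in all alternatives run.

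Same-numbered libraries share only a number, and their deviations correlated by 0.384 in 4T1 and by less than 0.1 in size elsewhere. With the replicate number as a block, Actb under siPcf11 in total RNA became a call (log2 0.22, edgeR adjusted p = 0.0141), making 3 of 3. For 4sU against total RNA with siPcf11, 1 site passed, the far Acta2 site (log2 -0.29, adjusted p = 0.0357). It moved no other count of actin calls. Over all features it raised the calls for Pcf11-IPAKO in 4T1 from 437 to 1590, while DESeq2 lowered those for 4sU against total RNA with siPcf11 from 2059 of 11082 tested to 1163 of 7859. For the response in 4sU against total RNA the block gave 219 calls, from 95 of 11082 tested, and DESeq2 gave 32 of the 2273 it tested. Where a left-out library leaves a group with 1, that library is assumed to vary like the others. Low read counts limit the precision of the minor sites, of Acta1 in control C2C12 cells and of Acta2 in 4T1 cells.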
